A study of Mus musculus with 6 samples.

Results

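The genes described here belong to small groups that cells switch on within minutes of stress or stimulation. Their products act on cell division, cell survival and protein synthesis. The genes are 3 immediate early response genes (Ier2, Ier3 and Ier5), 3 growth arrest and DNA damage-inducible genes (Gadd45a, Gadd45b and Gadd45g), the antiproliferative genes Btg1 and Btg2, Cdkn1a, which encodes the cyclin-dependent kinase inhibitor p21, and Ppp1r15a, which encodes GADD34. They were picked by name, as the rows of the count table whose Ensembl identifier carries one of these 10 symbols in GENCODE M21. All 10 were found among the 55335 genes of the table, and all 10 were among the 15687 genes with enough counts to be tested. All 10 had a higher normalized level after LPS than after PBS, between 2.05-fold for Gadd45g and 23.0-fold for Ppp1r15a with TMM scaling. Scaling by library size alone lowered these to log2 fold changes of 0.63 and 4.12.

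The cells were bone marrow-derived macrophages (BMDMs) from C57BL/6 mice. They were wild type (WT in the library names of both groups), with no other allele named in the labels. The labels give no age, and by the study's methods its mice were young adult males. Bone marrow was grown for 6 d with 10% fetal bovine serum and 20% L929-conditioned medium, a source of the macrophage growth factor M-CSF. One group of 3 libraries came from cells given PBS and the other group of 3 from cells given LPS, the cell wall component of Gram-negative bacteria that is sensed by TLR4, and both were collected after 1 h. The labels number the libraries 1 to 3 in each group and give the same numbers as batches. They do not say whether the libraries came from separate mice or separate cultures, so the p-values measure the spread between these libraries, which may be technical.

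The libraries held between 37787611 and 41516330 counts. Levels are given as normalized CPM, counts set relative to library size and scaled by edgeR's TMM factors, which were 1.15 in the PBS libraries and between 0.864 and 0.872 in the LPS libraries. A gene is said to have risen or fallen when the adjusted p was under 0.05 by edgeR's quasi-likelihood test over all tested genes and the log2 fold change was above 1 or below -1. The macrophage identity of the cells was visible in the summed level of 8 macrophage markers (Adgre1, Csf1r, Cd68, Itgam, Lyz2, Mertk, Fcgr1 and Cd14), which lay between 29926 and 31209 normalized CPM in PBS and between 35868 and 36227 in LPS libraries. Of these 8 genes, Cd14, the LPS co-receptor, rose (log2 fold change 3.19). It had 17641 to 19310 counts in PBS and 119924 to 122739 in LPS libraries, which makes up part of the difference between the sums. The others had log2 fold changes between -0.48 (Fcgr1) and 0.35 (Csf1r). Lyz2, which had the most counts of the 8, was at 0.06. The sum of 7 neutrophil and precursor markers lay between 40.8 and 43.6 normalized CPM in PBS and between 52.7 and 56.7 in LPS libraries, also without overlap, and Ly6g had between 0 and 3 counts. The summed levels of 4 B cell markers (2.61 to 3.40), 5 T and NK cell markers (0.675 to 1.15) and 4 fibroblast markers (9.78 to 13.1) were low in both groups and overlapped between them. The 5 dendritic cell markers summed to between 4.05 and 5.41 in PBS and between 11.8 and 12.3 in LPS libraries, and 4 of them rose. These sums rest on few counts, at most 153 for any of the 5 in any library. Xcr1 had 1 to 2 counts in PBS and 15 to 27 in LPS libraries. With TMM scaling the macrophage, neutrophil and dendritic cell sums were thus higher in LPS libraries, as were the genes below. With library size alone the macrophage sum was lower in LPS than in PBS libraries and the neutrophil sums overlapped. The dendritic cell sums stayed apart. The part of these markers in the results below was not tested. In bulk RNA, a change in the share of a cell type and a change in RNA per cell cannot be told apart.

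These genes are textbook members of the early response. GADD34 brings protein phosphatase 1 to the translation factor eIF2α and removes the phosphate that stress kinases put there. p21 blocks the cyclin-dependent kinases of the G1/S transition and is the classical target of p53. GADD45 proteins bind the kinase MAP3K4 at the top of the p38 and JNK cascades, and also p21 and PCNA. BTG proteins bind the deadenylases CNOT7 and CNOT8 of the CCR4-NOT complex, which shortens poly(A) tails. IER3, also called IEX-1, modulates cell survival and ERK signalling, and IER5 works with the heat shock factor HSF1 and protein phosphatase 2A. Many genes of this kind are short and carry promoter elements for inducible factors.

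The sequences just upstream of the start sites are shown first, for the genes whose windows hold a TATA box or a motif of an inducible factor. RefSeq windows of 300 bases on GRCm38.p6, which span 250 bases before the transcription start (position 0) and 50 from it, were at hand for 9 of the 10 genes, with 2 starts for Cdkn1a, which makes 10 windows; Ier2 had no entry. Each was searched on both strands. The TATA box TATAAA occurred in 4 of the 10 windows and in 13.6% of all 32851 windows. In Btg1, Gadd45g and Gadd45b it began at positions -26, -27 and -46. The GENCODE start of Gadd45b, at 80930073, lies upstream of the RefSeq start. In Ppp1r15a it began at position 15, inside the transcript. The stretches below are printed 5′ to 3′ on the strand of the gene, all of which are on the plus strand, and the capitals mark the TATA box. They lie at chr10:96616941-96617000, chr13:51846615-51846674 and chr10:80930013-80930072.
Btg1: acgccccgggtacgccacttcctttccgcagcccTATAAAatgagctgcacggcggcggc
Gadd45g: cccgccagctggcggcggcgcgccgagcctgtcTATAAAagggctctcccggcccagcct
Gadd45b: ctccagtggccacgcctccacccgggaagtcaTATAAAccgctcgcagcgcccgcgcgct

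The full cAMP response element TGACGTCA, bound by CREB and ATF factors, occurred in the windows of Btg2 and Ppp1r15a, 2 of 10, and in 1.79% of all windows. It contains the half-site TGACG, which occurred in 3 of the 10 windows (Btg1, Btg2 and Ppp1r15a) and in 20.8% of all windows. The element began at position -12 in Ppp1r15a and at -166 in Btg2. A match to the NF-kB motif occurred in 1 window, that of Ier3, and in 4.51% of all windows. It began at position -92 and shared its first bases with a GC box. The GENCODE start of Btg2, at 134079120, lies downstream of the RefSeq start, and that of Ier3, at 35821684, upstream. The positions in these 2 genes thus depend on the start used. The next stretches carry these matches in capitals, on the plus strand for Ier3 (chr17:35821593-35821652) and on the minus strand for Ppp1r15a (chr7:45526269-45526328) and Btg2 (chr1:134079286-134079345).
Ier3: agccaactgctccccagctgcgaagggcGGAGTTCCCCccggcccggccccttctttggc
Ppp1r15a: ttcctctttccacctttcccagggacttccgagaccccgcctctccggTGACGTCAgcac
Btg2: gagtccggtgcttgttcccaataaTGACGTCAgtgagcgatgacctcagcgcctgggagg

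The GC box GGGCGG occurred in 7 of the 10 windows and in 35.7% of all windows. A C/EBP-ATF response element, TGATGNAA, occurred in the window of Gadd45g and in 3.97% of all windows. The AP-1 motif TGANTCA (7.81% of all windows) and the SRF CArG box (1.63%) occurred in none of the 10. A match is a run of letters and not a measured binding site, and these windows leave out more distant elements.

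**Figure D1:**
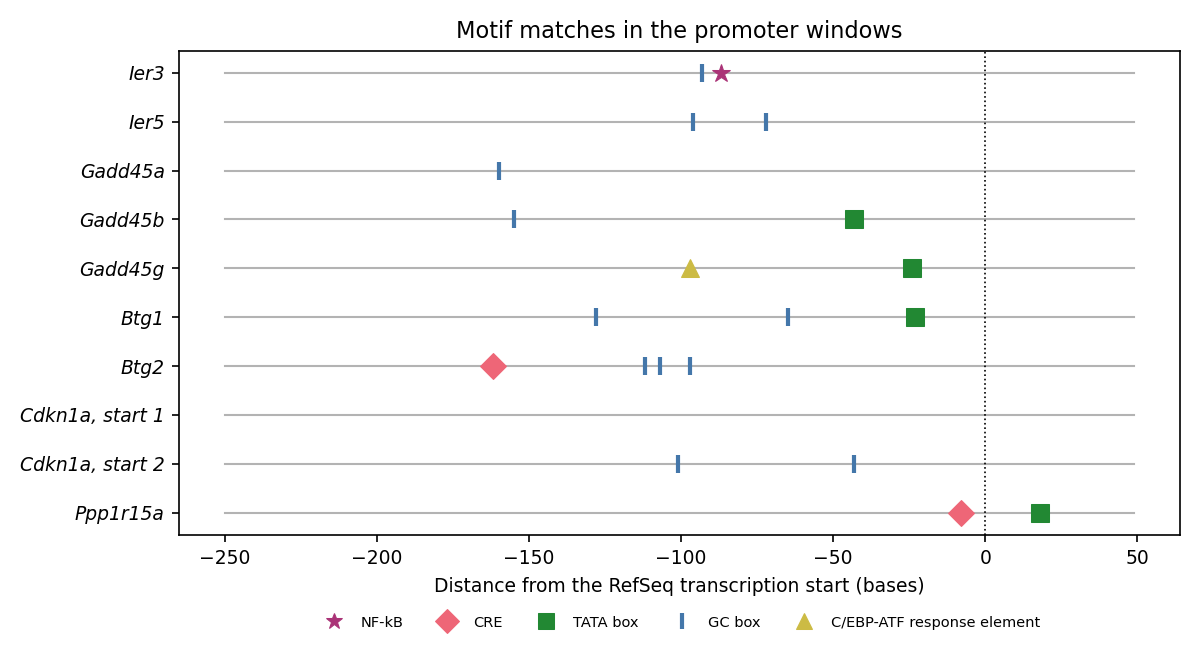
Positions of motif matches in the 10 promoter windows, by distance in bases from the RefSeq transcription start (dotted line at 0), with a symbol for each motif; half-sites are left out. TATA boxes stand close before the start in Btg1, Gadd45g and Gadd45b, and the full cAMP response element lies close to the start in Ppp1r15a and farther upstream in Btg2.

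All 10 genes rose in LPS libraries and 0 fell, where 10.5% of the tested genes rose and 10.4% fell. Their median log2 fold change was 2.73, and that of all tested genes was -0.01. In each of the 10 genes the lowest LPS library lay above the highest PBS library, which held for 33.9% of the tested genes. Each of the 10 was higher in LPS in 3 of 3 batches. Without the criterion on size, 32.9% of the tested genes were higher and 34.9% lower at an adjusted p under 0.05. The summed level of the 10 genes was 577 ± 14.8 normalized CPM (SD, n = 3) in PBS and 3388 ± 57.4 (SD, n = 3) in LPS libraries.

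**Figure D2:**
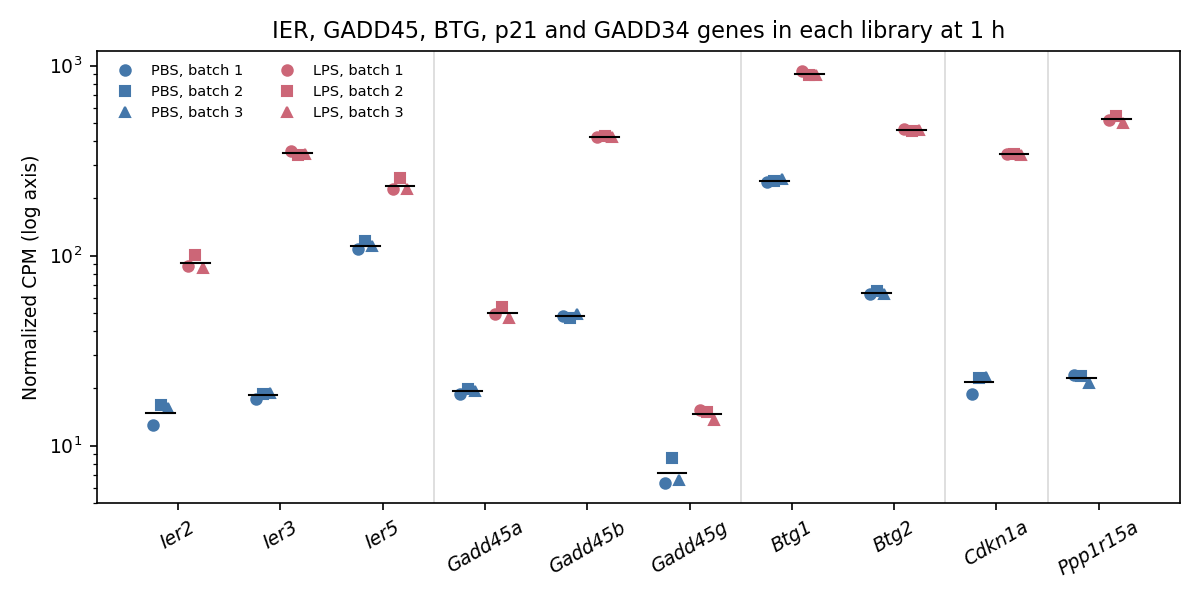
Normalized CPM of the 10 genes in each of the 6 libraries, on a log axis; blue is PBS, red is LPS, symbol shapes are batches 1 to 3 and black lines are means of 3 libraries. The groups are apart in all 10 genes, by the least in Gadd45g, where the lowest LPS library was 1.59-fold the highest PBS library.

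Ppp1r15a (ENSMUSG00000040435.12, chromosome 7, 45522916 to 45526268, minus strand; positions here and below are from GENCODE M21 on GRCm38, and identifier versions from the count table) rose the most. Its normalized CPM was 23.4, 23.2 and 21.3 in the PBS libraries and 520, 544 and 502 in the LPS libraries of batches 1, 2 and 3. The lowest LPS library was 21.4-fold the highest PBS library. The change was 4.53 on the log2 scale (SE 0.05, edgeR adjusted p = 2.09e-22), and 1.50% of the tested genes had a higher one. Within batches it was 4.47, 4.55 and 4.56. The exons of Ppp1r15a share 12 bp with Tulp2 on the other strand, which had at most 4 counts in any library.

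The eIF2α kinases, the phosphatase subunits and the target genes of the integrated stress response, the pathway that GADD34 shuts off, form a list of 18 genes, of which 18 were tested, 1 rose, 1 fell and 16 did neither, where 10.5% of all tested genes rose and 10.4% fell. Eif2s1, Xbp1 and Hspa5 are counted in this list. With library size alone 3 of the list fell. Their median log2 fold change was 0.05, and at an adjusted p under 0.05 alone 7 were higher and 7 lower, where 32.9% and 34.9% of all tested genes were. Ppp1r15b, the constitutive counterpart of GADD34, went from 104 ± 2.18 to 168 ± 2.02 normalized CPM (SD, n = 3 each), which on the log2 scale was a change of 0.69 (edgeR adjusted p = 1.71e-12) and did not reach the size criterion. Ddit3, which encodes CHOP and is a target of ATF4, fell from 20.4 ± 0.892 to 8.53 ± 0.450 normalized CPM (SD, n = 3 each; log2 fold change -1.26, edgeR adjusted p = 1.23e-11). The mRNA of Atf4 had a log2 fold change of 0.35, and -0.05 where only library size was used for scaling. The gene that rose was Chac1, a glutathione-degrading enzyme, with only 4 to 9 counts in PBS and 18 to 19 in LPS libraries. Of the 4 kinases, Eif2ak1 had a log2 fold change of 0.04, Eif2ak2 (PKR) -0.46, Eif2ak3 (PERK) -0.59 and Eif2ak4 (GCN2) -0.29.

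Cdkn1a (ENSMUSG00000023067.14, chromosome 17, 29090976 to 29100727, plus strand) had a normalized CPM of 18.8, 22.8 and 23.1 in PBS and 344, 342 and 337 in LPS libraries. The PBS libraries were more uneven than the LPS libraries, with a coefficient of variation of 11.2% against 1.06%. The lowest LPS library was still 14.6-fold the highest PBS library. On the log2 scale Cdkn1a changed by 3.99 (SE 0.06, edgeR adjusted p = 2.05e-20), and 4.20, 3.91 and 3.87 within batches. AC167363.2, an uncurated transcript on the other strand that covers 7.68% of the exonic bases of Cdkn1a, had at most 16 counts in any library.

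Of 23 genes in the list of p53, its regulators and its other targets, 22 were tested, 4 rose, 2 fell and 16 did neither, with a median log2 fold change of -0.08. The shares over all tested genes were 10.5% and 10.4%. At an adjusted p under 0.05 alone 7 of the list were higher and 10 lower, where 32.9% and 34.9% of all tested genes were. With library size alone 4 of the list passed both criteria downward. Trp53 itself had a log2 fold change of 0.32 (edgeR adjusted p = 0.000116), and one of -0.09 where only library size was used for scaling. Mdm2, the ubiquitin ligase that degrades p53, rose from 114 ± 2.96 to 688 ± 15.6 normalized CPM (SD, n = 3 each; log2 fold change 2.59). The stress kinase gene Plk3 rose by 2.19, the proapoptotic Pmaip1 (NOXA) by 1.70 and the death receptor gene Fas by 1.55 on the log2 scale. The 2 that fell were Bbc3 (PUMA), another proapoptotic BH3-only gene, from 12.6 ± 0.623 to 4.06 ± 0.596 normalized CPM (log2 fold change -1.64), and Sesn1, an inhibitor of mTORC1 signalling, from 176 ± 5.09 to 60.6 ± 1.31 (log2 fold change -1.54; SD, n = 3 each). Ccng1 and Bax, other common p53 targets, had log2 fold changes of -0.18 and -0.05.

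Beside p21, the list of other CDK inhibitors, G1 cyclins and their kinases held 15 genes, Pcna among them, of which 14 were tested. Ccnd2, a D-type cyclin, rose by 1.55 on the log2 scale and the other 13 did not pass both criteria. Of all tested genes, 10.5% rose and 10.4% fell. At an adjusted p under 0.05 alone 4 of the 14 were higher and 8 lower, where 32.9% and 34.9% of all tested genes were. With upper quartile scaling 1 gene of the list fell, and with library size alone 2. Cdkn1b, which encodes the related inhibitor p27, had 51.6 ± 1.59 normalized CPM in PBS and 44.6 ± 2.23 in LPS libraries (SD, n = 3 each; log2 fold change -0.21, edgeR adjusted p = 0.000390). Cdkn1c, the third gene of this inhibitor family, had a log2 fold change of 0.26. Ccnd1 had a log2 fold change of -0.45, Ccne1 of -0.91 and Ccne2 of -0.75, all short of the size criterion.

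Among the GADD45 genes, Gadd45b (ENSMUSG00000015312.9, chromosome 10, 80930073 to 80932204, plus strand) rose the most. Its normalized CPM was 48.2, 47.1 and 49.4 in PBS and 420, 429 and 420 in LPS libraries, and the lowest LPS library was 8.50-fold the highest PBS library. The rise was 3.13 on the log2 scale (SE 0.04, edgeR adjusted p = 8.11e-22). Gadd45b is the family member best known as an NF-kB target and an inhibitor of the JNK kinase MKK7.

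Gadd45a (ENSMUSG00000036390.8, chromosome 6, 67035096 to 67037457, minus strand), the member best known as a p53 target, had a normalized CPM of 18.7, 19.9 and 19.4 in PBS and 49.6, 53.7 and 47.0 in LPS libraries. This was a log2 fold change of 1.37 (SE 0.05, edgeR adjusted p = 9.44e-14), and 0.97 with scaling by library size alone, under the size criterion. Of its exonic bases, 19.1% overlap E230016M11Rik on the other strand, which had 82 to 96 counts in PBS and 35 to 36 in LPS libraries, against 892 to 899 and 1600 to 1755 counts of Gadd45a.

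Gadd45g (ENSMUSG00000021453.2, chromosome 13, 51846678 to 51848468, plus strand) was the least abundant of the 3 per length in both groups and stood at the edge of the size criterion. Its normalized CPM was 6.38, 8.56 and 6.58 in PBS and 15.4, 15.0 and 13.6 in LPS libraries. Its PBS replicate 2 was the highest of the 3 and the coefficient of variation in PBS, 16.8%, was the widest of the 10 genes. On the log2 scale the difference was 1.03 (SE 0.10, edgeR adjusted p = 3.40e-08), and 1.27, 0.81 and 1.05 within batches. It fell short of 1 without PBS replicate 1 (0.95) or PBS replicate 3 (0.97), was at 1.00 and uncalled without LPS replicate 1, and was 0.89 with upper quartile scaling and 0.63 with library size alone.

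The 3 genes did not rise alike. The log2 ratio of Gadd45b to Gadd45a counts in the same library, which no scaling between libraries can change, was 1.36, 1.24 and 1.35 in PBS and 3.08, 3.00 and 3.16 in LPS libraries, a difference of 1.76. The log2 ratio of Gadd45b to Gadd45g differed by 2.09, and that of Gadd45a to Gadd45g by 0.33. The groups did not overlap in any of these ratios, but the gap for Gadd45a to Gadd45g was 0.13 on the log2 scale. In the IER, GADD45 and BTG groups together, 7 gene pairs were compared. The IER genes were grouped by name, and whether Ier3 is related in sequence to Ier2 and Ier5 was not examined. An exact two-sided permutation test gave p = 0.1 for each pair, the smallest p that 3 libraries against 3 allow. After Benjamini-Hochberg adjustment over the 7 pairs, p was 0.10. Within batches the smallest exact p is 0.25, which each pair had. Per kb of exon, Gadd45b made up 64.0% ± 2.20 of the GADD45 level in PBS and 86.7% ± 0.602 in LPS libraries (SD, n = 3 each). Gadd45a went from 23.1% ± 0.25 to 9.24% ± 0.462, and Gadd45g from 12.9% ± 1.96 to 4.07% ± 0.224. The summed level of the family per kb rose 6.48-fold.

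**Figure D3:**
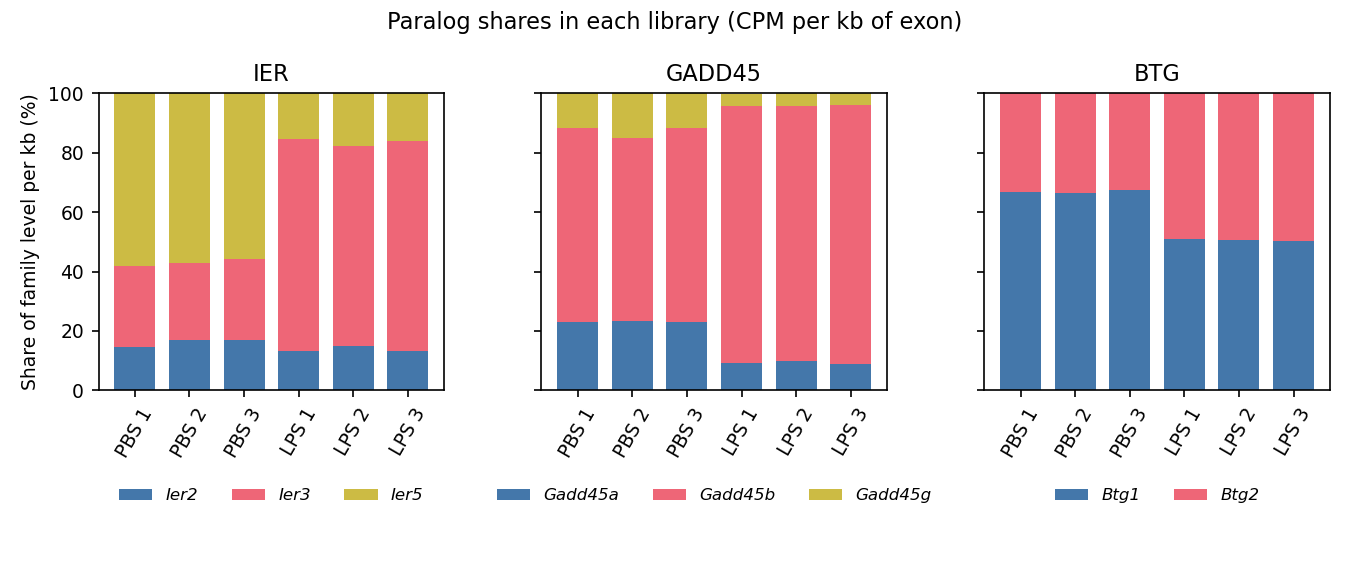
Share in percent of each gene in the summed level of its group, IER, GADD45 or BTG (normalized CPM per kb of exon), in each library. Bars are libraries. Ier3 and Gadd45b take a larger part of their groups in every LPS library, and Btg1 and Btg2 come close to equal parts.

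In the kinase cascades downstream of the GADD45 proteins, 9 of 10 listed genes were tested, 2 rose and 7 did not pass both criteria. At an adjusted p under 0.05 alone 5 were higher and 3 lower, where 32.9% and 34.9% of all tested genes were. Past both criteria, 10.5% of all tested genes rose and 10.4% fell. Map2k3, a kinase that activates p38, rose from 34.4 ± 0.788 to 199 ± 4.88 normalized CPM (SD, n = 3 each; log2 fold change 2.53). Mapk8, which encodes JNK1, rose by 1.16 on the log2 scale, and this value was 0.76 with library size alone. Map3k4, the kinase that GADD45 proteins bind, had 36.6 ± 0.739 normalized CPM in PBS and 31.4 ± 0.785 in LPS libraries (log2 fold change -0.22, edgeR adjusted p = 0.000216). Map2k7, which encodes MKK7, had a log2 fold change of -0.15, and Mapk14, the main p38 gene, of 0.00.

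Btg2 (ENSMUSG00000020423.6, chromosome 1, 134075170 to 134079120, minus strand), also a p53 target, rose more than its paralog. Its normalized CPM was 63.0, 65.1 and 63.2 in PBS and 466, 453 and 459 in LPS libraries, with coefficients of variation of 1.85% and 1.45%. Btg2 rose by 2.85 on the log2 scale (SE 0.03, edgeR adjusted p = 1.93e-21). Btg1 (ENSMUSG00000036478.8, chromosome 10, 96617006 to 96622809, plus strand) had the most reads of the 10 genes in both groups, with a normalized CPM of 243, 247 and 254 in PBS and 934, 893 and 893 in LPS libraries, a log2 fold change of 1.87 (SE 0.04, edgeR adjusted p = 1.71e-18). The log2 ratio of Btg2 to Btg1 counts was -1.96 ± 0.04 in PBS and -0.98 ± 0.02 in LPS libraries (SD, n = 3 each), with no overlap and the smallest possible exact permutation p of 0.1. Per kb of exon, Btg2 went from 33.1% ± 0.646 to 49.4% ± 0.384 of the pair.

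The list of the other BTG/TOB genes and their partners held 13 genes, among them CCR4-NOT subunits, Pabpc1 and Prmt1. Of these, 12 were tested, 3 rose and 9 did not pass both criteria, and Btg4 had at most 1 count. At an adjusted p under 0.05 alone 8 were higher and 2 lower, where 32.9% and 34.9% of all tested genes were. Past both criteria, 10.5% of all tested genes rose and 10.4% fell. The 3 genes of the list that rose were all BTG/TOB genes. Tob1 rose from 5.44 ± 0.809 to 15.7 ± 1.09 normalized CPM (SD, n = 3 each; log2 fold change 1.53), Tob2 by 1.11 and Btg3 by 1.09 on the log2 scale. Tob2 and Btg3 came under the size criterion with upper quartile scaling (0.97 and 0.95) and with library size alone (0.70 and 0.69). Cnot7, a deadenylase bound by BTG proteins, had a log2 fold change of 0.49, and its paralog Cnot8 one of -0.25.

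Ier3 (ENSMUSG00000003541.6, chromosome 17, 35821684 to 35822923, plus strand) rose the most of the IER genes. Its normalized CPM was 17.6, 18.8 and 19.0 in PBS and 355, 340 and 341 in LPS libraries, and the lowest LPS library was 17.9-fold the highest PBS library. On the log2 scale Ier3 rose by 4.22 (SE 0.04, edgeR adjusted p = 1.35e-22), second to Ppp1r15a among the 10 genes.

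Ier2 (ENSMUSG00000053560.5, chromosome 8, 84661331 to 84662852, minus strand), a nuclear protein gene that, like Ier5, has 1 exon, had a normalized CPM of 12.8, 16.3 and 15.7 in PBS and 87.9, 101 and 86.0 in LPS libraries. PBS replicate 1 was the lowest of its group, and LPS replicate 2 the highest. The rise of Ier2 was 2.62 on the log2 scale (SE 0.07, edgeR adjusted p = 6.98e-16), and 2.78, 2.64 and 2.45 within batches.

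Ier5 (ENSMUSG00000056708.5, chromosome 1, 155096361 to 155099636, minus strand) was already at 108, 119 and 112 normalized CPM in PBS and reached 223, 256 and 223 in LPS libraries. Replicate 2 was the highest in both groups, as it was for Ier2. Its rise was 1.05 on the log2 scale (SE 0.05, edgeR adjusted p = 1.98e-12). It was 0.98 without LPS replicate 2, 0.91 with upper quartile scaling and 0.64 with library size alone, under the size criterion in each case.

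Within the IER genes, the log2 ratio of Ier3 to Ier5 counts was -2.62, -2.67 and -2.55 in PBS and 0.67, 0.41 and 0.61 in LPS libraries, so that Ier3 went from fewer to more reads than Ier5. The difference was 3.18, against 1.60 for Ier3 to Ier2 and 1.58 for Ier2 to Ier5, each with no overlap and an exact permutation p of 0.1. Per kb of exon, Ier5 made up 56.9% ± 1.17 of the IER level in PBS and 16.3% ± 1.10 in LPS libraries (SD, n = 3 each), and Ier3 27.0% ± 0.771 and 69.9% ± 2.09. The share of Ier2 was 16.1% ± 1.19 and 13.8% ± 0.995.

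Ier5l, a relative of Ier5, went the other way. It had 308 to 332 counts in PBS and 39 to 66 in LPS libraries and fell from 6.93 ± 0.361 to 1.65 ± 0.453 normalized CPM (SD, n = 3 each; log2 fold change -2.07, SE 0.14, edgeR adjusted p = 3.80e-10). Of 7 tested relatives and partners of the IER proteins it alone passed both criteria, where 10.5% of all tested genes rose and 10.4% fell. At an adjusted p under 0.05 alone 4 of the 7 were higher and 1 lower, where 32.9% and 34.9% of all tested genes were. Hsf1, the heat shock factor, had a log2 fold change of 0.13 and Ppp2ca, the catalytic subunit of protein phosphatase 2A, one of 0.93.

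**Figure D4:**
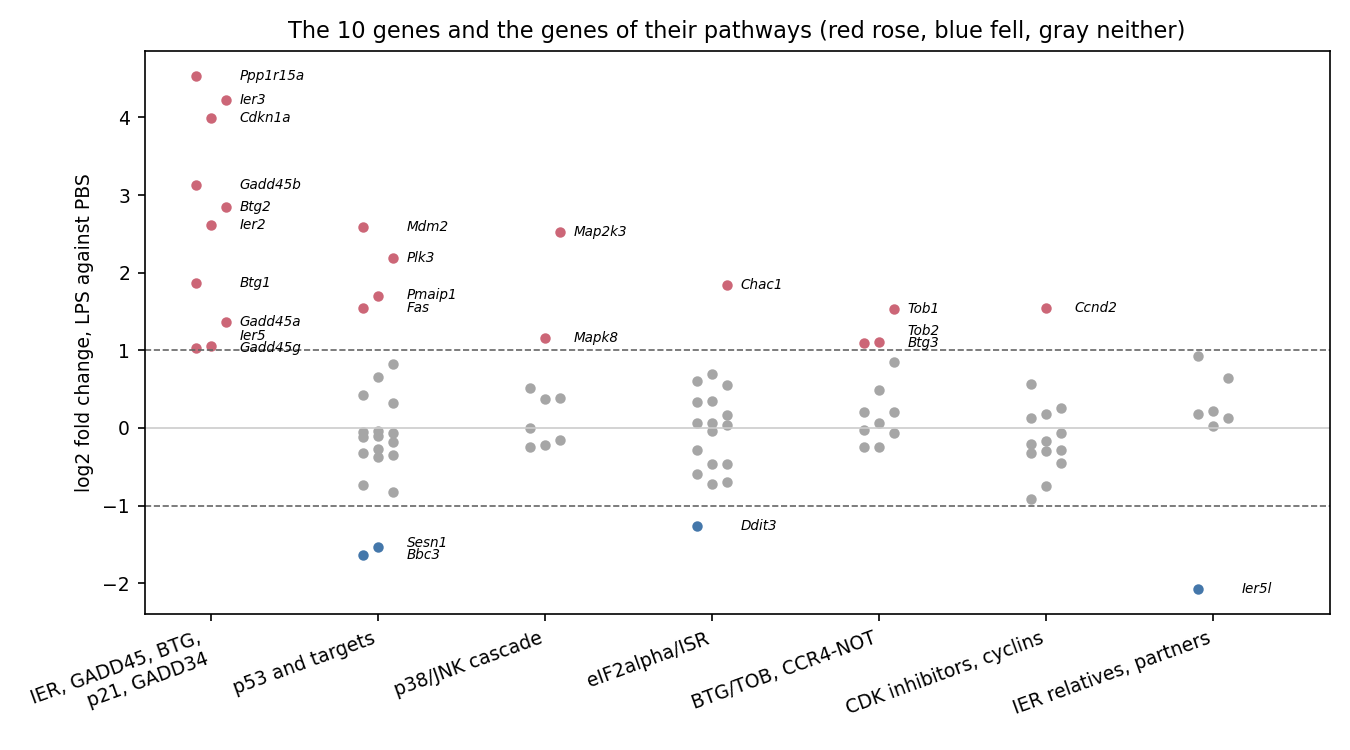
log2 fold change of the 10 genes (first column) and of the tested genes of 6 pathway lists; red points rose and blue points fell past both criteria, gray points did neither, and dashed lines mark log2 fold changes of 1 and -1. All 10 genes of the first column are red, and 11 of the 82 points in the other columns are; of all tested genes 10.5% rose.

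Across the 6 lists, 82 of 86 genes were tested, 11 rose and 4 fell, with a median log2 fold change of 0.03. These counts stand beside 10.5% of all tested genes that rose and 10.4% that fell. With scaling by library size alone 8 rose and 10 fell.

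The order of the levels changed with LPS. Per kb of exon, on the scale of normalized CPM per kb, Btg1 was highest in PBS libraries at 47.0 ± 1.01 (SD, n = 3), followed by Ier5 at 34.5 ± 1.73, Gadd45b at 30.4 ± 0.741, Btg2 at 23.2 ± 0.430 and Ier3 at 16.3 ± 0.660. Each of these was apart from the next in all libraries. Gadd45a (11.0 ± 0.333) and Ier2 (9.80 ± 1.22) overlapped, and Ier2 was apart from Ppp1r15a (7.72 ± 0.405). Ppp1r15a overlapped with Gadd45g (6.12 ± 1.03), and Gadd45g with Cdkn1a (6.06 ± 0.677). In LPS libraries Ier3 was highest at 305 ± 7.72, followed by Gadd45b at 266 ± 3.28. Next came Ppp1r15a (178 ± 7.17), which overlapped with Btg1 (172 ± 4.50), and Btg1 overlapped with Btg2 (167 ± 2.42). Cdkn1a followed at 96.0 ± 1.02, Ier5 at 71.4 ± 5.89, Ier2 at 60.2 ± 5.39, Gadd45a at 28.4 ± 1.93 and Gadd45g at 12.5 ± 0.783. Ppp1r15a thus moved from place 8 to place 3 and Ier5 from place 2 to place 7. The length that is used matters for Gadd45b and Cdkn1a. With the longest transcript in place of all exons, Gadd45b stood above Ier5 in PBS libraries (37.6 against 34.5). It also stood above Ier3 in LPS libraries (330 against 305). Cdkn1a was then at 10.4 ± 1.16 in PBS libraries (SD, n = 3), place 7, before Ppp1r15a. Its order against Ier2 (9.80 ± 1.22) lay within the spread. In LPS libraries Cdkn1a was at 164, next to Btg2. Ppp1r15a was then in place 9 in PBS libraries.

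**Figure D5:**
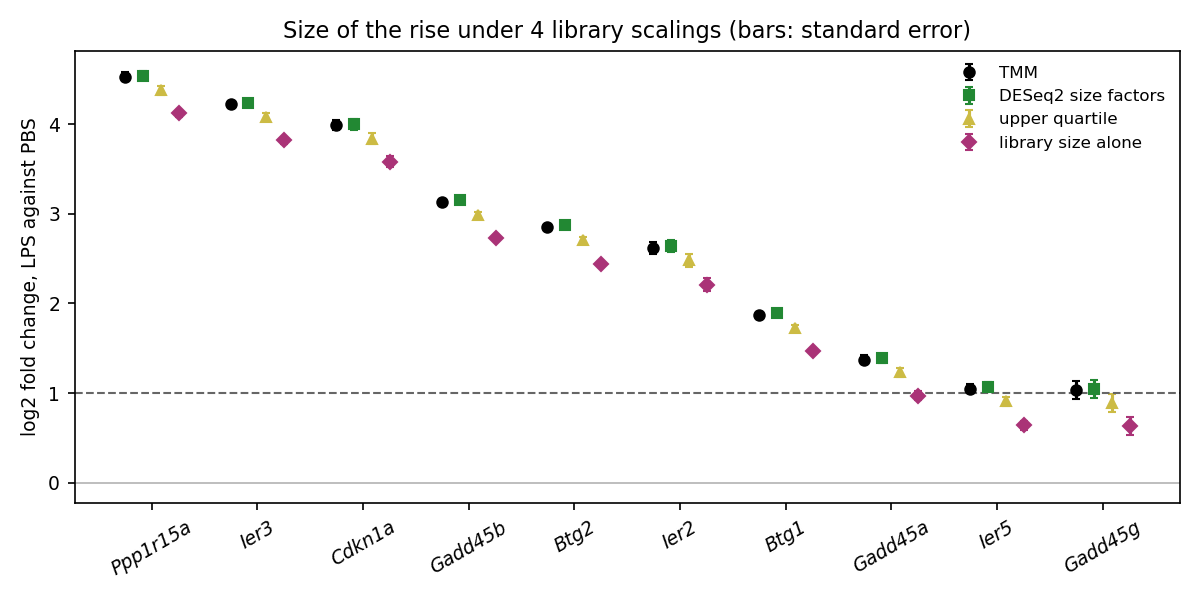
log2 fold change of LPS against PBS for the 10 genes under 4 scalings of the libraries, with standard errors from edgeR's fit; the dashed line marks a log2 fold change of 1. All values are above 0, and Gadd45a, Ier5 and Gadd45g come under the dashed line with library size alone.

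The size of the rise depends on the scaling, and its direction did not in the 4 scalings tried. With library size alone the median of all tested genes moved by -0.40 on the log2 scale, the 10 genes lay between 0.63 and 4.12, and 7 of them passed both criteria. Of all tested genes, 1213 then rose and 2964 fell, against 1653 and 1624 with TMM. With upper quartile scaling the median moved by -0.14 and 8 of them passed.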

How the data were processed

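RNA-seq of 6 libraries, 3 PBS and 3 LPS, was analysed. The authors prepared stranded total RNA libraries, mapped the paired reads with HISAT2 2.1.0 (GRCm38), handled alignments with SAMtools 1.17 and obtained gene totals with featureCounts 2.0.0; the deposited values are raw counts. The annotation release, strand setting and treatment of multi-mapped reads are not given in the sources used here, so reads of overlapping genes on opposite strands may be shared. Identifiers were matched, version removed, to GENCODE M21 (55154 of 55335).

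Counts were filtered with filterByExpr, scaled by TMM and tested with the quasi-likelihood test of edgeR 4.0.16 in R 4.3.3, with Benjamini-Hochberg adjustment over 15687 genes. The functions were tested on simulated counts. Standard errors came from the F statistic. Ratios of gene pairs used counts plus 0.5. Alternatives were DESeq2 1.42.0, limma 3.58.1 voom, other scalings and filters, and each library left out.

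The batch labels pair same-numbered libraries. Deviations from the group means correlated between -0.0139 and 0.0822 for the same number, with a mean of 0.0357, and with a mean of -0.0178 for different numbers. The main model compared the groups without a batch term; the study's methods name pairwise comparisons and give no model formula in the sources used here. Replicates differed by more than sampling noise (chi-square per degree of freedom at least 5.20). The value was highest for LPS replicate 3, at 13.2 against LPS replicate 1 and 19.4 against LPS replicate 2.

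The genes, lists and tests were chosen with earlier results of these data known. Named genes were the 10 genes, the up to 4 largest changes past both criteria in each list with a mean of at least 50 counts, and direct partners. Fas, Sesn1, Chac1 and other list genes outside that rule were named after their values were seen. Protein sequences were not used here.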

Additional observations from a re-analysis of the deposited data

How the results depend on the processing

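With scaling by library size alone, Ier5 (0.64), Gadd45a (0.97) and Gadd45g (0.63) kept an adjusted p under 0.05 by edgeR's test but not a log2 fold change above 1, and the log2 fold changes of Trp53 (-0.09) and Atf4 (-0.05) were below 0. Under it 2964 of all tested genes fell, against 1624 with TMM, and 10 of the pathway genes fell, against 4. By list, 4 genes fell in the p53 list (2 with TMM), 3 in the eIF2α list (1), 2 in the G1 list (0), and 1 rose in the p38 and JNK list (2) and in the BTG/TOB list (3). Upper quartile scaling gave 0.91 for Ier5, 0.89 for Gadd45g, 1 rise in the BTG/TOB list and 1 fall in the G1 list. The number of genes that fell was 1027 with at least 10 counts in every library, where 13793 genes were tested. It was 922 in the edgeR test whose null is a 2-fold change, in which 8 of the 10 genes passed. Leaving out 1 library at a time, Gadd45g lay between 0.95 and 1.18 and Ier5 between 0.98 and 1.09. The log2 fold changes of the other 8 genes kept their call in these fits. With the replicate number as a block, 10 of 10 genes rose, Gadd45g had a log2 fold change of 1.04, and no call of the 10 genes or the named genes changed. DESeq2 and limma voom also gave 10 rises. The requirement of 10 counts removed Chac1. None of the differences in gene-pair ratios changed sign with another pseudocount or without a library. Of the levels per kb, 29 of 40 alternative values moved by more than 1 SD. With 3 libraries per group, an exact test cannot go below 0.1.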
